A study of Mus musculus with 30 samples.

Results

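The 9 transcription factor genes Nr4a1, Klf2, Klf4, Cebpa, Cebpb, Irf4, Irf8, Spi1 and Pou2f2 were chosen by name, as regulators of monocyte subset and macrophage fate, out of 45317 genes in the count table. RNA-seq was done on cells sorted from the blood and brain of 4 mice (mice 22, 23, 24 and 26) that carried a GL261 glioma, a syngeneic mouse glioma line that expressed palmitoylated GFP, in the striatum. All mice were heterozygous C57BL6.CCR2RFP/WT knock-in animals of 12 to 18 weeks, so that every population carried 1 Ccr2 allele replaced by RFP and no tumor-free or wild-type group was analysed here. The 8 populations were Ly6Chigh and Ly6Clow blood monocytes (mice 22, 23 and 24), GFPneg and GFPpos glioma monocytes (mice 22, 24 and 26), and GFPneg and GFPpos CCR2high and CCR2low macrophages from the brain (all 4 mice). GFPpos cells had taken up membrane material of the glioma cells and GFPneg cells had not. The 30 libraries gave 28 replicates, and the populations came from the same animals. Brain cells were released with enzymes and blood cells were not, so that compartment and handling cannot be told apart in any comparison of brain with blood.

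These factors bind DNA and set which myeloid genes are read. PU.1 (the product of Spi1) and the C/EBP proteins open the myeloid program, with C/EBPα acting in progenitors and C/EBPβ in maturation, in the survival of Ly6Clow monocytes and in the response to inflammation. IRF8 directs progenitors towards monocytes and type 1 dendritic cells, and its relative IRF4 acts in type 2 dendritic cells, in lymphocytes and in alternatively activated macrophages. Ly6Clow monocytes arise from Ly6Chigh monocytes and depend on the orphan nuclear receptor NR4A1. KLF2 and KLF4 are zinc finger factors, of which KLF4 promotes monocyte differentiation and KLF2 restrains myeloid activation, and POU2F2 (Oct-2) is an octamer-binding factor best known from B cells and also found in myeloid cells. Nr4a1 is also an immediate-early gene that is transcribed within minutes of a stimulus.

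Levels are given in CPM, gene counts scaled to a common library total with TMM factors, which compares 1 gene between samples and not genes with each other. Each replicate held between 1553620 and 5689640 gene counts, with repeat libraries joined. A pair of replicates stood apart from the rest. For Ly6Clow monocytes of mouse 23, the first library had 3460 genes with 5 reads or more and was left out, and the second, which was used, had 6475 such genes and 13.3% spike-in counts. Before TMM scaling the left-out and used libraries held 268 and 55.7 CPM of Irf8, and 582 and 100 CPM of Spi1. They held 192 and 52.8 CPM of Pou2f2, and 0 and 139 CPM of Klf4. For GFPpos glioma monocytes of mouse 22, both libraries passed and were summed, although the first had no Irf4 counts and 1532 Spi1 counts, and the second had 33 and 129. For the 9 factors, and for listed genes named in comparisons with Ly6Clow monocytes, the calls that leaving out such a replicate ended are named with the value without it.

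Blood monocytes were sorted on CD45, CD115 and Ly6C without CD11c, and brain cells from a gate high in both CD11b and CD45, set to leave microglia out, and then on Ly6C and F4/80. In the comparisons below the sums of listed markers did not overlap, although not every single marker followed its sum. The sum of 7 classical monocyte markers (such as Ly6c2, Ccr2 and Vcan) was 9372 to 16146 CPM in Ly6Chigh and 649 to 3056 CPM in Ly6Clow monocytes, and that of 10 nonclassical markers (such as Treml4, Spn and Ace) was 2019 to 3720 and 5678 to 8986 CPM. In brain the classical sum was 5727 to 7880 CPM in GFPneg glioma monocytes and 293 to 661 CPM in GFPneg CCR2low macrophages, and the 10 macrophage markers summed to 13281 to 34475 CPM in the 6 brain populations against 3258 to 6242 CPM in blood. Of the 10 nonclassical markers 4 were called between the blood subsets. Among them only Cx3cr1 had a lower mean in Ly6Clow (489 CPM) than in Ly6Chigh monocytes (697 CPM). Of the macrophage markers, Adgre1 (F4/80) averaged 325 CPM in GFPneg glioma monocytes, below Ly6Chigh (439 CPM) and Ly6Clow monocytes (399 CPM). Markers of other cells differed too. Of 8 T and NK cell markers 7 were called higher in Ly6Clow than in Ly6Chigh monocytes (adjusted p under 0.05), with sums of 761 to 1367 and 22.8 to 160 CPM. Microglia markers (6 genes) summed to 145 to 285 CPM in blood and 1336 to 7709 CPM in brain. Their part in the results was not tested, and in sorted bulk samples fewer cells of a type and less RNA per cell cannot be told apart.

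Of the 9 factors 7 varied among the 8 populations (edgeR quasi-likelihood F test, Benjamini-Hochberg adjusted p from 1.31e-05 for Klf4 and 2.09e-05 for Pou2f2 to 0.0142 for Klf2), where 25.1% of the 11566 tested genes did. Cebpa (adjusted p = 0.264) and Spi1 (0.317) did not pass. All 9 genes passed the filter on low counts. The 10 comparisons between blood subsets, or of brain with blood, gave 33 calls at an adjusted p under 0.05, and the 9 comparisons within the brain gave none in the fit of all populations without a replicate block. Nr4a1 within the brain passed in several other fits, given with that gene. Klf2 fell short of the threshold over the 8 populations without Ly6Clow mouse 22 or mouse 23 (highest adjusted p = 0.0937).

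**Figure D1:**
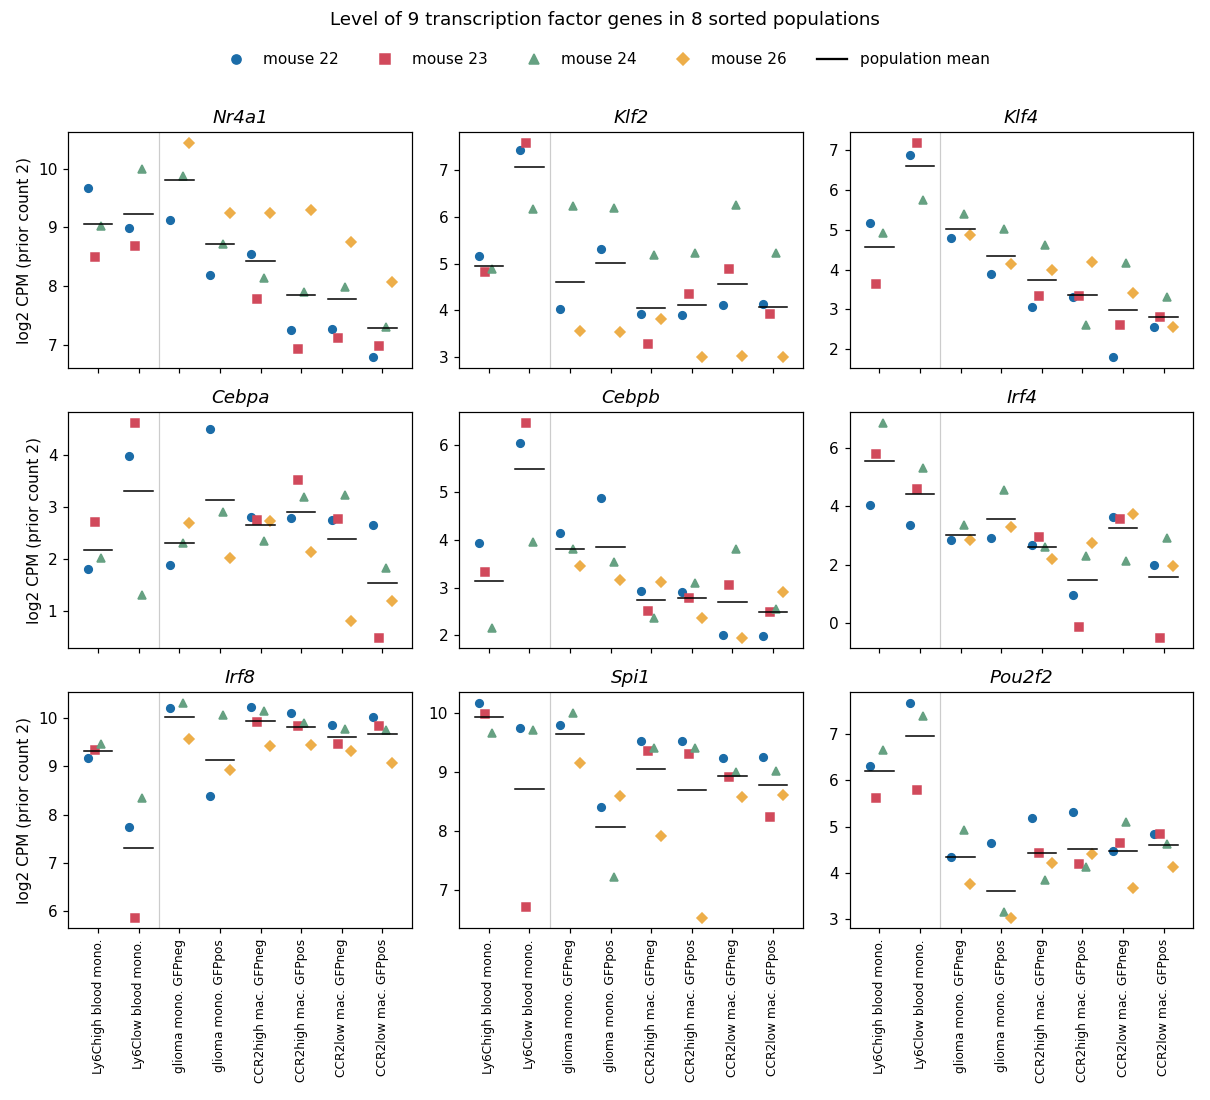
Level of each of the 9 genes (log2 CPM with a prior count of 2, vertical axis) in the 8 populations (horizontal axis); each symbol is 1 replicate, its shape and color give the mouse, and the line is the population mean. Repeat libraries are joined. Pou2f2 is at 48.6 CPM or more in all 6 blood replicates and at 39 CPM or less in all 22 brain replicates. Irf8 is lowest in Ly6Clow monocytes, and Nr4a1 is highest in mouse 26 in every brain population.

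Between the blood subsets, Klf4 and Cebpb were higher and Irf8 was lower in Ly6Clow than in Ly6Chigh monocytes, which made 3 of 9 factors where 5.61% of all tested genes were called. Klf2 also rose without overlap between the groups but missed the threshold (adjusted p = 0.104); with the mouse as a replicate block it passed (log2 fold change 2.38, adjusted p = 0.0094), as it did in DESeq2 (0.0392). Without Ly6Clow mouse 23, the replicate of doubted quality, none of the 3 passed: Klf4 stood at 1.67 on the log2 scale (adjusted p = 0.136), Cebpb at 2.08 (0.0864) and Irf8 at -1.29 (0.0552). Scaled to the spike-ins instead, Klf4 turned to -0.47 beside an all-gene median of -1.69 (log2), and none of the 9 was called. The T and NK cell marker sums given above moved with this comparison. Dendritic cell marker sums did so too, at 100 to 219 CPM in Ly6Chigh and 578 to 1895 CPM in Ly6Clow monocytes, as did B cell marker sums, at 58.7 to 110 and 244 to 443 CPM. The part of these cells in the comparison was not tested.

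Against Ly6Chigh monocytes, the calls in GFPneg brain cells were all decreases. Irf4 and Pou2f2 were lower in glioma monocytes (2 of 9 factors, 13.8% of all genes called) and in CCR2high macrophages (2 of 9, 17.8%), and Klf4 joined them in CCR2low macrophages (3 of 9, 20.2%). In GFPpos cells, Spi1 and Pou2f2 were lower in glioma monocytes (2 of 9, 23.1%), Irf4 and Pou2f2 in CCR2high macrophages (2 of 9, 19.5%), and Nr4a1, Klf4, Irf4 and Pou2f2 in CCR2low macrophages (4 of 9, 22.1%). Most genes called in these comparisons were higher in brain, 1286 of 1596 in GFPneg glioma monocytes and 1774 of 2556 in GFPpos CCR2low macrophages.

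Against Ly6Clow monocytes, the calls were decreases except for Irf8. GFPneg glioma monocytes had less Klf4, Cebpb and Pou2f2 and more Irf8 (4 of 9 factors, 18.5% of all genes called). CCR2high macrophages had, besides, less Klf2 (5 of 9, 23.1%), and CCR2low macrophages less Klf2 and less Nr4a1 (6 of 9, 23.4%). Of these 15 calls, 11 held in each fit that left out 1 replicate of the compared populations. With spike-in scaling Klf4 (0.41) and Cebpb (0.43) turned to higher values in GFPneg glioma monocytes, where the median of all genes was 1.70. The comparisons share the blood samples, so that they are not independent of each other.

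**Figure D2:**
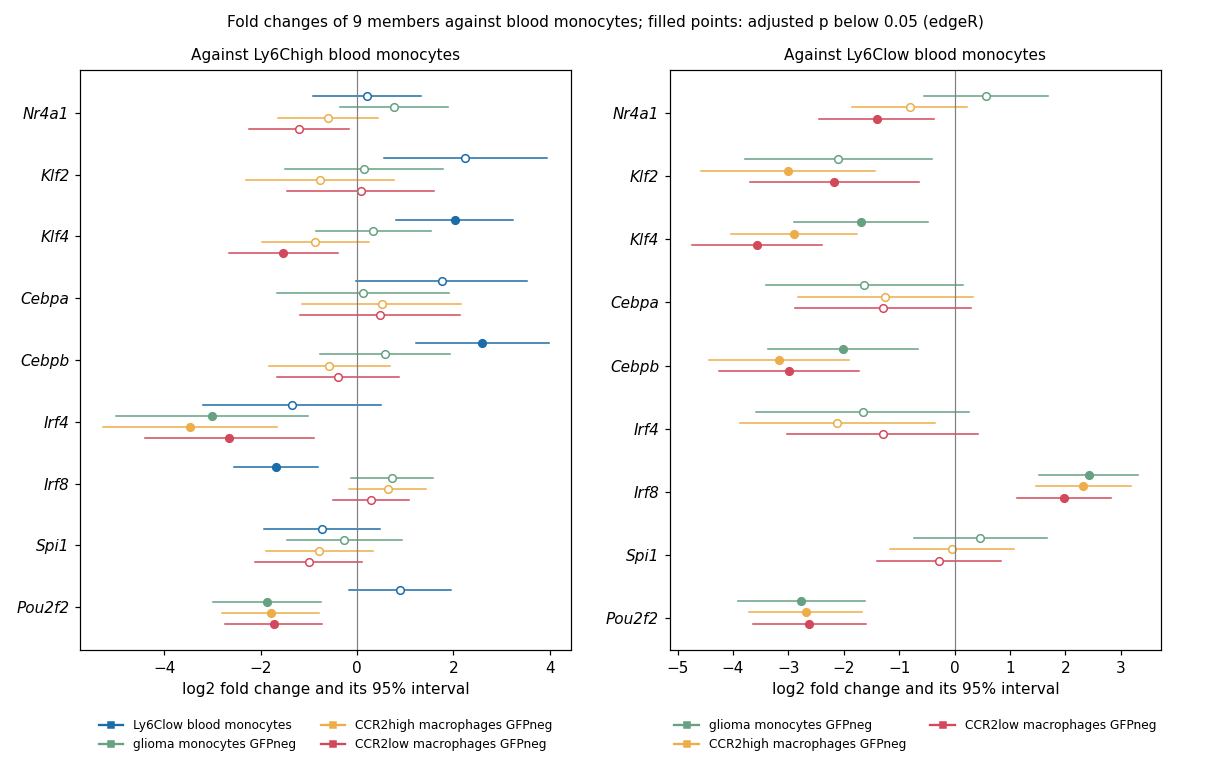
Log2 fold change (horizontal axis) and its 95% interval for each of the 9 genes in GFPneg brain populations, and in Ly6Clow monocytes, against Ly6Chigh blood monocytes (left) and Ly6Clow blood monocytes (right); filled points have an adjusted p below 0.05 in edgeR. Pou2f2 lies left of 0 in all 6 comparisons of brain with blood, and Irf8 lies right of 0, at 1.98 to 2.42, in the 3 comparisons with Ly6Clow monocytes.

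Among the myeloid master regulators, Spi1 ranked 1 or 2 of the 9 factors in each population in level per kilobase of all exons. Spi1 (ENSMUSG00000002111.8) lies on the plus strand of chromosome 2 of GRCm38, from 91082390 to 91115756. It had 1148, 1009 and 813 CPM in Ly6Chigh monocytes (mice 22, 23 and 24) and 854, 104 and 834 CPM in Ly6Clow monocytes, where the low value belonged to the doubted replicate of mouse 23. GFPneg glioma monocytes had 887, 1017 and 566 CPM (mice 22, 24 and 26), and their GFPpos counterparts had 339, 147 and 384 CPM. With repeat libraries joined, every GFPpos glioma monocyte value lay below every GFPneg one and every Ly6Chigh one. For GFPpos mouse 22 this rests on joining libraries that held 911 and 32.2 CPM of Spi1 before TMM scaling. The lowest value, that of mouse 24, came from a replicate with 5.16% spike-in counts. The difference from Ly6Chigh monocytes passed the test (log2 fold change -1.77 ± 0.60 (SE), adjusted p = 0.0342), and that from GFPneg glioma monocytes did not (-1.50 ± 0.60, adjusted p = 0.681). The first call was lost without any 1 of 5 of the 6 replicates (highest adjusted p = 0.125), among them GFPpos mouse 22 (-1.97, adjusted p = 0.0623), and with the mouse as a replicate block (-1.53, adjusted p = 0.0616). It was also lost with the first library alone of GFPpos mouse 22, with no filter on low counts and with spike-in scaling. In GFPneg CCR2high macrophages Spi1 had 737, 651, 674 and 241 CPM (mice 22, 23, 24 and 26), and in GFPpos ones 735, 632, 675 and 91.5 CPM, so that mouse 26 stood far below the other 3 in both. CCR2low macrophages held 382 to 602 CPM (GFPneg) and 301 to 606 CPM (GFPpos).

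Cebpa (ENSMUSG00000034957.10), which encodes C/EBPα, lies on the plus strand of chromosome 7, from 35119293 to 35121928, and ranked 7 to 9 of the 9 factors in level per kilobase of exon. Its counts ran from 2 to 108 per replicate, so that the precision of its levels is limited by depth. It had 2.81, 5.86 and 3.34 CPM in Ly6Chigh and 15.1, 23.9 and 1.78 CPM in Ly6Clow monocytes (mice 22, 23 and 24). The Ly6Clow group thus held both the highest and the lowest of the 6 blood values, and the difference did not pass (1.76 ± 0.86 on the log2 scale, adjusted p = 0.232). In brain it ranged from 0.698 CPM in GFPpos CCR2low macrophages of mouse 23 to 22 CPM in the doubted GFPpos glioma monocyte replicate of mouse 22, and it was called in none of the 19 comparisons. Of its exon bases, 1.93% are shared with the gene Gm45091 on the opposite strand, and the strand setting of the counting is not given in the sources used here.

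Cebpb, which encodes C/EBPβ, was highest in Ly6Clow monocytes. Cebpb (ENSMUSG00000056501.3) lies on the plus strand of chromosome 2, from 167688915 to 167690418, and 20.7% of its exon bases overlap Tmem189 on the minus strand, so that its counts are uncertain to that extent. It had 14.6, 9.37 and 3.76 CPM in Ly6Chigh and 64.6, 86.7 and 14.8 CPM in Ly6Clow monocytes (mice 22, 23 and 24). The lowest Ly6Clow value lay just above the highest Ly6Chigh one, and within each mouse the Ly6Clow sample was higher (log2 fold change 2.60 ± 0.67, adjusted p = 0.0213). In glioma monocytes GFPneg cells had 17.1, 13.4 and 10.3 CPM (mice 22, 24 and 26), and GFPpos ones 28.5, 10.9 and 8.26 CPM. All 16 macrophage replicates were at 3.16 to 13.4 CPM, below each Ly6Clow replicate. Against Ly6Clow monocytes the log2 fold changes were -2.02 ± 0.66 (GFPneg glioma monocytes, adjusted p = 0.0322), -3.17 ± 0.62 (GFPneg CCR2high macrophages, 0.000495) and -2.99 ± 0.61 (GFPneg CCR2low macrophages, 0.000842). Of these 3 the first overlapped in range, and it was lost in 5 of 6 fits that left out 1 replicate, most without Ly6Clow mouse 23 (-1.53, adjusted p = 0.134), and with a replicate block (-1.82, adjusted p = 0.0699), while both macrophage decreases held in each fit that left out 1 replicate.

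Of the interferon regulatory factors, Irf8 was the abundant one and was lowest in Ly6Clow monocytes. Irf8 (ENSMUSG00000041515.10) lies on the plus strand of chromosome 8, from 120736358 to 120756694. It had 572, 648 and 704 CPM in Ly6Chigh and 215, 57.8 and 323 CPM in Ly6Clow monocytes (mice 22, 23 and 24). The groups did not overlap (log2 fold change -1.69 ± 0.42, adjusted p = 0.0177), and the call was lost without Ly6Clow mouse 23 or without Ly6Chigh mouse 23 or 24 (highest adjusted p = 0.0654). In glioma monocytes the GFPneg samples had 1175, 1264 and 760 CPM (mice 22, 24 and 26) and GFPpos ones 333, 1070 and 483 CPM. CCR2high macrophages had 689 to 1200 CPM (GFPneg) and 690 to 1105 CPM (GFPpos), and CCR2low macrophages 633 to 928 and 534 to 1042 CPM. All 22 brain replicates therefore lay above the highest Ly6Clow replicate, although the GFPpos glioma monocytes of mouse 22, at 333 CPM, did so by little. That value joins libraries at 703 and 112 CPM before TMM scaling, the second of them below the highest Ly6Clow replicate. Against Ly6Clow monocytes the log2 fold changes were 2.42 ± 0.43 (GFPneg glioma monocytes, adjusted p = 0.000245), 2.33 ± 0.42 (GFPneg CCR2high macrophages, 0.000218) and 1.98 ± 0.41 (GFPneg CCR2low macrophages, 0.000979). Without Ly6Clow mouse 23 these were 1.97, 1.86 and 1.53, all still called (highest adjusted p = 0.00509). Against Ly6Chigh monocytes Irf8 was called in no brain population in the fit of all populations. In a fit of the compared populations alone it passed in GFPneg CCR2high macrophages (0.64, adjusted p = 0.0498). With that setting the calls against Ly6Clow monocytes were lost in GFPneg glioma monocytes (adjusted p = 0.0913) and GFPneg CCR2low macrophages (0.0579).

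Irf4 showed another order, with its highest levels in Ly6Chigh monocytes. Irf4 (ENSMUSG00000021356.10) lies on the plus strand of chromosome 13, from 30749226 to 30766976. It had 15.7, 54.5 and 113 CPM in Ly6Chigh and 9.43, 23.1 and 39.1 CPM in Ly6Clow monocytes (mice 22, 23 and 24), and the mice came in the same order in both subsets. The blood subsets overlapped, and their difference did not pass (-1.36 ± 0.90, adjusted p = 0.396). The glioma monocytes had, in GFPneg samples, 6.52, 9.64 and 6.45 CPM (mice 22, 24 and 26), GFPpos ones 6.73, 22.5 and 9.01 CPM, and the 16 macrophage replicates 0 to 12.7 CPM. Every GFPneg brain replicate was below every Ly6Chigh replicate, and the log2 fold changes were -3.02 ± 0.97 in glioma monocytes (adjusted p = 0.0373), -3.47 ± 0.88 in CCR2high macrophages (0.0061) and -2.65 ± 0.85 in CCR2low macrophages (0.0279). Each of these 3 calls was lost without Ly6Chigh mouse 24, the highest replicate (adjusted p up to 0.221). Of the fits that left out 1 replicate, 5 of 6 lost the call of glioma monocytes. For CCR2high macrophages 1 of 7 did so, and for CCR2low macrophages 4 of 7. In GFPpos macrophages the log2 fold changes of -4.37 (CCR2high, adjusted p = 0.00109) and -4.20 (CCR2low, 0.00133) held in each fit that left out 1 replicate. In GFPpos glioma monocytes Irf4 passed against Ly6Chigh monocytes only in other fits, such as DESeq2 (-2.28, adjusted p = 0.0336). Against Ly6Clow monocytes it passed in DESeq2 in GFPneg CCR2high macrophages (-2.07, adjusted p = 0.0435).

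The ratio of the interferon factors to each other puts both genes in 1 value per replicate. Per kilobase of exon, Irf8 exceeded Irf4 by 4.32, 8.26 and 25.3 times in the Ly6Chigh replicates and by 1.74, 5.74 and 15.8 times in the Ly6Clow replicates. In the 21 brain replicates with any Irf4 count the ratio was 33.1 or more, with population medians from 34.3 in GFPpos glioma monocytes to 388 in GFPpos CCR2high macrophages. With repeat libraries joined, no blood replicate reached the lowest brain ratio. The ratio of 34.3 for GFPpos glioma monocytes of mouse 22 rests on joining its libraries. Before TMM scaling the first held 703 CPM of Irf8 and no Irf4 count. The second held 112 CPM of Irf8 and 8.23 CPM of Irf4, and its ratio alone lies within the blood range. Since Irf4 counts were as low as 1 per replicate in brain, the highest of these ratios (3177, from 1 count) is imprecise. Within the C/EBP pair, Cebpb exceeded Cebpa per kilobase in 27 of 28 replicates, and the ratio over all 28 ran from 0.956 to 14.6. Klf2 against Klf4 ran from 0.638 to 11.2 times, with overlap among all populations for this second pair. For Cebpb over Cebpa the Ly6Clow replicates, at 6.36 to 14.6, lay above all 8 CCR2high macrophage replicates, at 1.01 to 2.36.

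**Figure D3:**
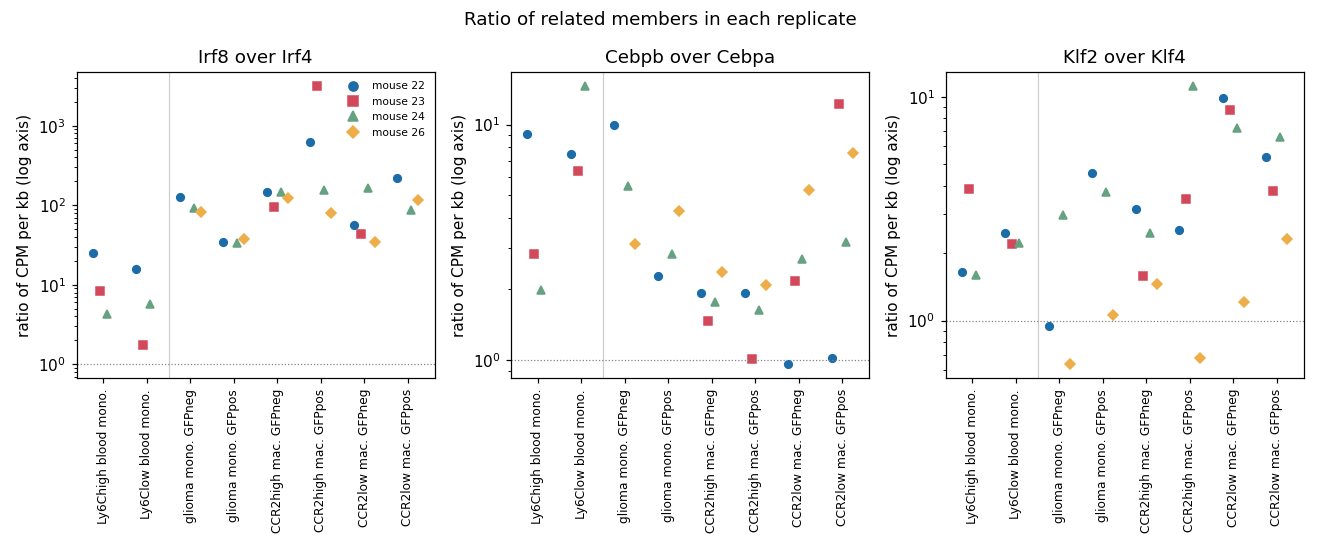
Ratio of CPM per kilobase of exon (vertical axes, logarithmic) for Irf8 over Irf4, Cebpb over Cebpa and Klf2 over Klf4 in each replicate of the 8 populations (horizontal axes); symbols give the mouse and the dotted line marks equal levels. With repeat libraries joined, the Irf8 to Irf4 ratio is 1.74 to 25.3 in the 6 blood replicates and 33.1 or more in brain. CCR2low GFPpos macrophages of mouse 23 had no Irf4 count and have no point.

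Among the factors tied to Ly6Clow monocytes, Nr4a1 was not called between the blood subsets. Nr4a1 (ENSMUSG00000023034.7) lies on the plus strand of chromosome 15, from 101254269 to 101274795. It had 810, 359 and 521 CPM in Ly6Chigh and 510, 411 and 1023 CPM in Ly6Clow monocytes (mice 22, 23 and 24). The log2 difference was 0.20, with a 95% interval from -0.91 to 1.32 (adjusted p = 0.897), so that these samples leave room for a difference in either direction. In brain the highest levels were in GFPneg glioma monocytes, with 560, 939 and 1381 CPM (mice 22, 24 and 26), followed by GFPpos glioma monocytes with 290, 420 and 606 CPM. CCR2high macrophages had 372, 219, 282 and 607 CPM (GFPneg; mice 22, 23, 24 and 26) and 153, 122, 237 and 624 CPM (GFPpos). CCR2low macrophages had 154, 139, 254 and 431 CPM (GFPneg) and 110, 126, 159 and 269 CPM (GFPpos). Neighbours in this order overlapped, and within a mouse the glioma monocytes were above the CCR2low macrophages of the same GFP class in all 6 pairs.

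Within the brain, the Nr4a1 call depended on the fit. GFPneg CCR2low macrophages had less than GFPneg glioma monocytes without overlap (log2 fold change -1.97 ± 0.51, adjusted p = 0.053), which passed with the mouse as a replicate block (-1.79, adjusted p = 0.000133; 2.46% of all genes called in that fit) and in DESeq2 (-1.94, adjusted p = 0.0133). It also passed with a minimum of 10 counts in every replicate (-1.90, adjusted p = 0.0483), in a fit of these populations alone (-1.98, adjusted p = 0.044), without both doubted replicates (-1.99, adjusted p = 0.0324) and without GFPneg CCR2low macrophages of mouse 26 (adjusted p = 0.0296). With the block Nr4a1 also passed in GFPneg CCR2high macrophages against GFPneg glioma monocytes (-1.13, adjusted p = 0.0295; 0.83% of all genes) and in GFPpos CCR2low macrophages against GFPpos glioma monocytes (-1.17, adjusted p = 0.032; 0.527%). The summed immediate-early and heat shock genes (16 genes) moved with this comparison, at 15714 to 26600 CPM in GFPneg glioma monocytes and 7210 to 11784 CPM in GFPneg CCR2low macrophages, and their part in it was not tested. Against blood, Nr4a1 was lower in GFPneg CCR2low macrophages than in Ly6Clow monocytes (-1.41 ± 0.51, adjusted p = 0.0447) and in GFPpos CCR2low macrophages than in Ly6Chigh monocytes (-1.77 ± 0.51, adjusted p = 0.0128). The first of these was lost with library sizes recomputed after the filter (-1.33, adjusted p = 0.0573) and in 4 of 7 fits that left out 1 replicate (highest adjusted p = 0.205), and the second without Ly6Chigh mouse 22 (0.0699). With the block, Nr4a1 was also lower than in Ly6Chigh monocytes in GFPpos glioma monocytes (-0.96, adjusted p = 0.0127), in CCR2high macrophages (-0.99 in GFPneg, 0.00642, and -1.56 in GFPpos, 8.47e-05) and in GFPneg CCR2low macrophages (-1.65, 3.82e-05), and lower than in Ly6Clow monocytes in GFPneg CCR2high macrophages (-1.11, 0.00237).

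Klf2 was highest in Ly6Clow monocytes. Klf2 (ENSMUSG00000055148.7) lies on the plus strand of chromosome 8, from 72319033 to 72321656. It had 35.4, 27.5 and 28.6 CPM in Ly6Chigh and 173, 191 and 71 CPM in Ly6Clow monocytes (mice 22, 23 and 24), so that every Ly6Clow replicate was above every Ly6Chigh one (2.25 ± 0.82 on the log2 scale, adjusted p = 0.104). In brain the mice stood apart within a population. Mouse 24 had 75 and 72.9 CPM in GFPneg and GFPpos glioma monocytes and 75.4 CPM in GFPneg CCR2low macrophages, while mouse 26 had 11, 10.9 and 7.38 CPM in the same cells. Klf2 was lower than in Ly6Clow monocytes in GFPneg CCR2high macrophages, which had 9.02 to 35.8 CPM (-3.01 ± 0.76, adjusted p = 0.00548), and in GFPneg CCR2low macrophages, which had 7.38 to 75.4 CPM (-2.18 ± 0.74, adjusted p = 0.0348). The first held in each fit that left out 1 replicate, and the second was lost without Ly6Clow mouse 23 (-1.92, adjusted p = 0.103) and 4 other replicates. In GFPneg glioma monocytes the decrease missed the threshold and passed with a replicate block (-2.32, adjusted p = 0.00685).

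Klf4 was also highest in Ly6Clow monocytes. Klf4 (ENSMUSG00000003032.8) lies on the minus strand of chromosome 4, from 55527143 to 55532466. It had 35.4, 11.7 and 29.5 CPM in Ly6Chigh and 117, 144 and 52.7 CPM in Ly6Clow monocytes (mice 22, 23 and 24). The groups did not overlap (log2 fold change 2.03 ± 0.59, adjusted p = 0.0433), but 5 of 6 fits that left out 1 replicate lost the call (highest adjusted p = 0.229), as did recomputed library sizes (1.90, adjusted p = 0.0593). The highest Ly6Clow value, that of mouse 23, came from its second library with 374 Klf4 counts, while the first library, which was left out, had 0. With both summed the call was lost as well (1.86, adjusted p = 0.0537). The lowest Ly6Clow replicate also lay above all 22 brain replicates. GFPneg glioma monocytes had 27.1, 41.8 and 28.4 CPM (mice 22, 24 and 26) and GFPpos ones 14.1, 32 and 16.9 CPM, while macrophages had 2.75 to 24 CPM. Against Ly6Clow monocytes the log2 fold changes were -1.69 ± 0.59 in GFPneg glioma monocytes (adjusted p = 0.0461), -2.89 ± 0.55 in GFPneg CCR2high macrophages (0.000424) and -3.56 ± 0.57 in GFPneg CCR2low macrophages (5.09e-05). The first was lost in 5 of 6 fits without 1 replicate (highest adjusted p = 0.155; -1.38, adjusted p = 0.137 without Ly6Clow mouse 23), with recomputed library sizes (-1.60, adjusted p = 0.0595) and with both libraries of Ly6Clow mouse 23 summed (-1.52, adjusted p = 0.0648). The other 2 were lost in none of 7 fits without 1 replicate. Against Ly6Chigh monocytes Klf4 was lower in CCR2low macrophages, with log2 fold changes of -1.54 ± 0.55 in GFPneg cells (adjusted p = 0.0492) and -1.97 ± 0.55 in GFPpos cells (0.0111). The first was lost in 5 of 7 fits without 1 replicate (highest adjusted p = 0.16), and the second in none.

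Pou2f2, the octamer-binding factor Oct-2, did not overlap between blood and brain with repeat libraries joined. Pou2f2 (ENSMUSG00000008496.19) lies on the minus strand of chromosome 7, from 25087344 to 25179726, and shares 0.425% of its exon bases with Mir6537. It had 79.2, 48.6 and 101 CPM in Ly6Chigh and 203, 54.7 and 168 CPM in Ly6Clow monocytes (mice 22, 23 and 24). GFPneg glioma monocytes had 19.6, 30 and 12.9 CPM (mice 22, 24 and 26), GFPpos ones 24.3, 8.17 and 7.51 CPM, and the 16 macrophage replicates 12.1 to 39 CPM. No brain replicate reached the lowest blood replicate. For GFPpos glioma monocytes of mouse 22 this rests on joining libraries that held 50 and 8.73 CPM before TMM scaling. The first of these lay above the 48.6 CPM of the lowest blood replicate. Against Ly6Chigh monocytes Pou2f2 was lower in all 6 brain populations, with log2 fold changes from -1.65 ± 0.49 (GFPpos CCR2low macrophages, adjusted p = 0.0146) to -2.48 ± 0.55 (GFPpos glioma monocytes, 0.00175). Of these calls, 5 were lost without Ly6Chigh mouse 24 (adjusted p up to 0.098), that of GFPneg glioma monocytes also without their mouse 22 or 26 (up to 0.099). That of GFPpos glioma monocytes held in each fit that left out 1 replicate and stood at -3.37 without the doubted mouse 22 (0.000703). Against Ly6Clow monocytes the log2 fold changes of -2.76 (GFPneg glioma monocytes, adjusted p = 0.000854), -2.69 (GFPneg CCR2high, 0.000298) and -2.63 (GFPneg CCR2low macrophages, 0.000358) also held, and were -3.16, -3.10 and -3.02 without Ly6Clow mouse 23. B cells express this gene, and the sum of 5 B cell markers was 58.7 to 110 CPM in Ly6Chigh, 244 to 443 CPM in Ly6Clow and 37.1 to 925 CPM in brain. The part of B cells in the Pou2f2 levels was not tested.

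Levels of different genes were compared per kilobase of exon. Spi1 or Nr4a1 ranked first in every population, with 108 to 367 CPM per kilobase for Spi1 and 47.3 to 274 for Nr4a1, Irf8 ranked from 2 to 6 and Klf2 from 3 to 4. Cebpa, Irf4 and Pou2f2 each ranked lowest in at least 1 population. With the longest transcript in place of all exons, Irf8 moved in 5 of 8 populations and Spi1 in 4. Irf8 then ranked 1 in 4 of 8 populations (both CCR2high populations, GFPpos CCR2low macrophages and GFPpos glioma monocytes) and Spi1 ranked 3 in GFPpos glioma monocytes, so that the order of the most abundant factors depended on the length used.

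Within the brain, none of the 9 factors was called in any of 9 comparisons by edgeR in the fit of all populations without a replicate block, while the Nr4a1 calls of other fits are given above. GFPneg CCR2high macrophages against GFPneg glioma monocytes had 0 called factors (0.182% of all genes), 2 at an unadjusted p under 0.05 (Nr4a1 and Klf4) and 0 in DESeq2. GFPneg CCR2low macrophages against GFPneg glioma monocytes had 0 (1.21%), 2 unadjusted (Nr4a1 and Klf4), and both of these were called in DESeq2. In GFPpos cells, CCR2high macrophages against glioma monocytes had 0 (0.0173%) and 2 unadjusted (Cebpb and Irf4), and CCR2low macrophages against glioma monocytes 0 (0.164%) and 5 unadjusted (Nr4a1, Klf4, Cebpa, Cebpb and Irf4), with 0 in DESeq2 for both. Of all 11566 tested genes, 622, 978, 673 and 766 had an unadjusted p under 0.05 in these comparisons, in the order given. CCR2low against CCR2high macrophages had 0 called in either GFP class, as 0% of all genes were, and 0 in DESeq2. No factor had an unadjusted p under 0.05 there, beside 276 of all genes in GFPneg and 171 in GFPpos cells. The 95% intervals were wide in this last comparison: for Klf2 in GFPneg cells the log2 difference was 0.84, from -0.60 to 2.27.

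Between GFPpos and GFPneg cells of a type no factor passed the threshold. In glioma monocytes 0 of 9 factors and 0% of all genes were called by edgeR, with Nr4a1 (-1.13 ± 0.55) and Spi1 (-1.50 ± 0.60) at an unadjusted p under 0.05 and 0 factors in DESeq2. In CCR2high and in CCR2low macrophages 0 factors and 0% of all genes were called, with 0 factors at an unadjusted p under 0.05 and 0 in DESeq2. Of all 11566 tested genes, 739 in glioma monocytes, 69 in CCR2high and 184 in CCR2low macrophages had an unadjusted p under 0.05. Tests of whether the GFP effect differed among the 3 cell types called 0 factors and 0% of all genes in each of 3 pairs by edgeR, with 1 factor, Cebpa, at an unadjusted p under 0.05 (glioma monocytes minus CCR2low macrophages, smallest adjusted p of any factor over the 3 pairs 0.999942). DESeq2 was also run for these tests, and its outcome is not given here. As a description, Nr4a1 was lower in the GFPpos than in the GFPneg sample of the same mouse in 10 of 11 pairs, by up to 1.28 on the log2 scale, and for the other 8 factors the larger direction held in 6 to 8 of 11 pairs. The pairs of 1 mouse are not independent of each other.

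Some factors followed the mouse across brain populations, Nr4a1 and Klf2 most fully. Nr4a1 was highest in mouse 26 in 6 of 6 brain populations. The sum of 16 immediate-early and heat shock genes, which like Nr4a1 respond to stimulation and to cell handling, was 6596 to 26600 CPM in brain against 1736 to 2865 CPM in blood, and was highest in mouse 24 in 5 of 6 brain populations. Klf2 was highest in mouse 24 in 6 of 6 and lowest in mouse 26 in 5 of 6. The B cell marker sum was highest in mouse 24 and lowest in mouse 26 in 6 of 6. Klf4 was highest in mouse 24 and lowest in mouse 22 in 5 of 6 populations each, and Irf8 was lowest in mouse 26 in 5 of 6. The part of other cells and of handling in these levels was not tested.

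**Figure D4:**
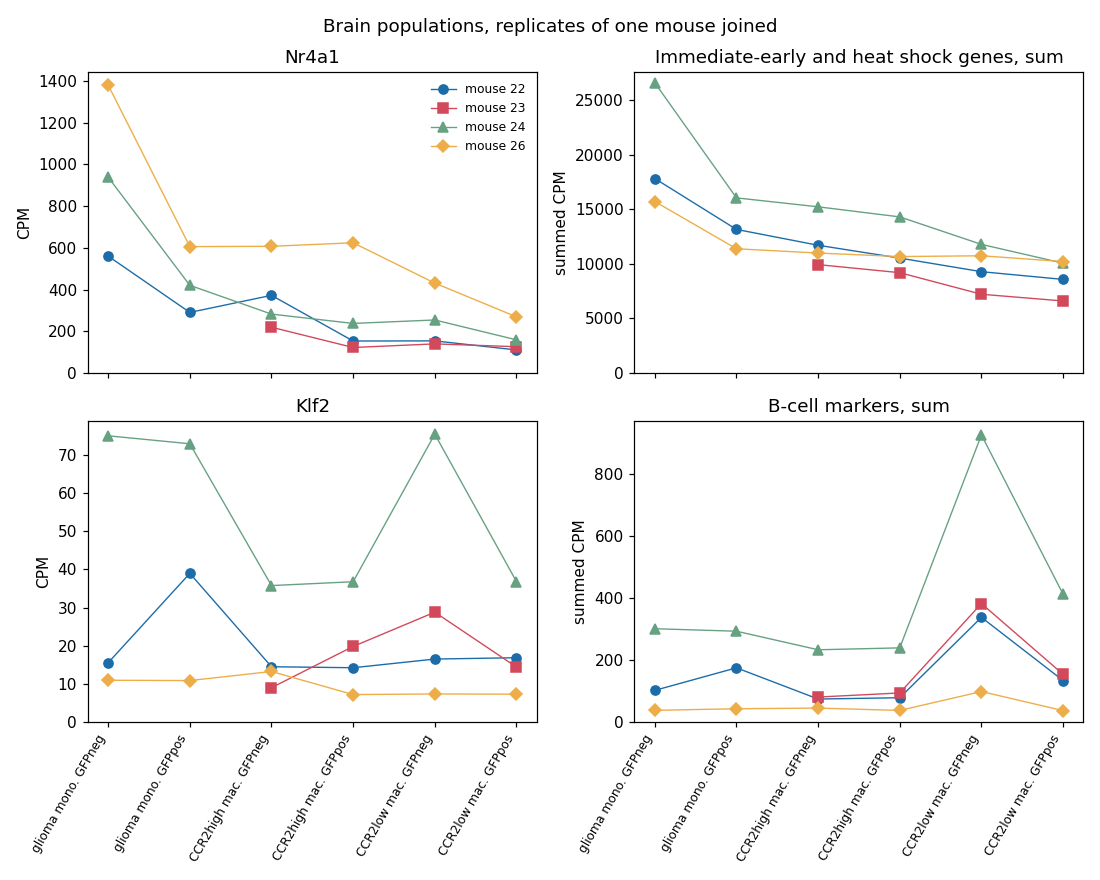
CPM of Nr4a1 and Klf2 (left) and summed CPM of 16 immediate-early and heat shock genes and of B cell markers (right) in the 6 brain populations (horizontal axes); each line joins the replicates of 1 mouse, and the axes start at 0. Nr4a1 is highest in mouse 26 throughout, Klf2 and the B cell marker sum are highest in mouse 24 throughout.

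RefSeq promoters (250 bases before to 50 after a start, GRCm38.p6) were found for 8 of the 9 genes, and all 8 were searched for motifs. Of the motifs, 12 were searched on both strands, and 3 matched any of the 8: the cyclic AMP response element (CRE) half-site TGACG, the CACCC box bound by KLF factors and TATAAA. The full site TGACGTCA, of which the half-site is a part, matched none, and neither did AAAGGTCA, TTGCNNAA, ATGCAAAT, GAGGAAGT, TGANTCA and the named sites of IRF pairs (ISRE), NF-kB and MEF2. The half-site was in 4 of 8 members, where 20.8% of 32851 promoters hold it, with 4 matches for Nr4a1, 3 for Cebpb and 1 each for Klf2 and Klf4. CACCC was in 5 members (57.5% of promoters) and TATAAA in 4 (13.6%). The half-site contains a CpG, and the 4 windows that hold it had 69.3 to 80.7% G and C bases, where the median of all promoters was 52.7%, so that the share over all promoters is no like reference. A match describes these letters and is not a bound site. Stretches are shown for the 4 genes with a half-site. In the stretches, half-sites on either strand are in capitals, each sequence runs 5′ to 3′ on the gene's strand, and none reaches into an exon.
Nr4a1, plus strand, chr15:101266596-101266845: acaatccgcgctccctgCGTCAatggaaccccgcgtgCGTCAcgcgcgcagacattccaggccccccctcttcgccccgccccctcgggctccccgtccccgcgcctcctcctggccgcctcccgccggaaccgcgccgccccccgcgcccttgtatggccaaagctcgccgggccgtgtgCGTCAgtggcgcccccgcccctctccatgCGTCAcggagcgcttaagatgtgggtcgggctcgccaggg
Cebpb, plus strand, chr2:167688715-167688914: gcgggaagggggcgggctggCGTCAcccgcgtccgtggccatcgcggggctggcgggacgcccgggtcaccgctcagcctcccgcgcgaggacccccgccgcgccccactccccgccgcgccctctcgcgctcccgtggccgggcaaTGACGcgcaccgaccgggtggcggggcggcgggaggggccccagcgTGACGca
Klf2, plus strand, chr8:72318812-72318851: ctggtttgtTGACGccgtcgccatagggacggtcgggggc
Klf4, minus strand, chr4:55532686-55532725: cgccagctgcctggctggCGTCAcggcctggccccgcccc
The stretches were chosen around the matches, so that their content is no test. The windows of Cebpa, Irf4, Irf8 and Pou2f2 held no half-site. Nothing about the direction of a gene's change was drawn from the matches.

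Relatives of the factors within their families moved in both directions. Of 30 listed family members 24 were tested. Against Ly6Chigh monocytes 9 were called in GFPneg glioma monocytes (6 higher, 3 lower), 9 in CCR2high macrophages (4 and 5) and 9 in CCR2low macrophages (3 and 6), beside 13.8, 17.8 and 20.2% of all genes, with list medians of -0.17, -0.49 and -0.30 on the log2 scale where all genes had 0.12, 0.15 and 0.17. Nr4a2 and Nr4a3, the other NR4A receptors, had no count in any Ly6Chigh library; against a floor of 3 counts over that group they were at least 60.6-fold and 31.6-fold higher in GFPneg glioma monocytes (adjusted p = 0.00279 and 0.00121), at least 33.5-fold higher each in CCR2high macrophages, and at least 22.4-fold and 31.4-fold higher in CCR2low macrophages. Nr4a1 differed from both in that it was already at 359 CPM or more in every blood replicate. Klf13 was lower in CCR2high (log2 fold change -2.85, adjusted p = 0.000334) and CCR2low macrophages (-3.07, 0.000141), as was Klf10 (-2.23 and -2.18), while Irf7, an interferon-induced factor, was 2.70 higher in GFPneg glioma monocytes (6.99e-06). Against Ly6Clow monocytes 6, 9 and 9 relatives were called in the same 3 populations (18.5, 23.1 and 23.4% of all genes), and 6 in each without Ly6Clow mouse 23. Klf3 was lower in glioma monocytes (-2.54, and -2.32 without that replicate). Between the blood subsets 2 were called (5.61% of all genes), Ddit3 (log2 fold change 1.60 in Ly6Clow against Ly6Chigh) and Irf7 (-1.36). Without Ly6Clow mouse 23 Ddit3 held (1.44, adjusted p = 0.0194) and Irf7 did not (-1.34, adjusted p = 0.0656). Among GFPneg brain cells Irf7 was the 1 relative called, in CCR2low macrophages against glioma monocytes (-2.09, adjusted p = 0.000507).

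Of 19 other listed regulators of myeloid fate 16 were tested. Against Ly6Chigh monocytes 7 in GFPneg glioma monocytes, 6 in CCR2high and 5 in CCR2low macrophages were called, all of them higher (list medians 1.95, 1.13 and 0.72). Beside these stand 13.8, 17.8 and 20.2% of all genes, most of which were also higher, and all-gene medians of 0.12, 0.15 and 0.17. They included Bhlhe40 (3.96, 3.41 and 3.03 higher), a repressor that acts in macrophage proliferation and cytokine control, and the macrophage factor Maf (2.25, 2.60 and 2.84). Sall1, a microglia factor, had no count in blood and was at least 41.8-fold, 27.4-fold and 87.5-fold higher than in Ly6Chigh monocytes, beside the microglia marker sums given above. Against Ly6Clow monocytes Pparg was lower in all 3 (-5.41, -4.09 and -4.87), also without Ly6Clow mouse 23 (-6.00, -4.69 and -5.46). Bhlhe40 and Id2 were higher in Ly6Clow than in Ly6Chigh monocytes (1.61 and 1.41), of which Bhlhe40 held without Ly6Clow mouse 23 (1.82, adjusted p = 0.0126) and Id2 did not (0.89, adjusted p = 0.15).

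Of 7 upstream genes, Trib1, which controls C/EBPα protein, was higher than in Ly6Chigh monocytes by 3.45, 2.09 and 1.99 in the 3 GFPneg populations, and Notch2, the receptor tied to Ly6Clow fate, was lower in CCR2high macrophages (-2.51, adjusted p = 0.0365). Hes1, a Notch target, was lower than in Ly6Clow monocytes in the same 3 populations (-2.70, -3.21 and -3.16), also without Ly6Clow mouse 23 (-3.09, -3.60 and -3.54). None of the 7 passed between the blood subsets (list median 0.69, all genes -0.02), although Hes1 did without that replicate (2.94 higher in Ly6Clow monocytes, adjusted p = 0.0422). Of 7 target genes, S1pr1, a KLF2 target, was higher in Ly6Clow monocytes (2.30, adjusted p = 0.0264) and Csf3r, a C/EBPα target, lower (-1.24, 0.0462), where 5.61% of all genes were called. Without Ly6Clow mouse 23 neither passed (2.18, adjusted p = 0.0532, and -1.10, adjusted p = 0.146). Arg1, a C/EBPβ target, had no count in Ly6Chigh monocytes and was at least 2836-fold, 2557-fold and 1705-fold higher in the GFPneg glioma monocytes, CCR2high and CCR2low macrophages, while Cebpb was called in none of these comparisons. Thbd, which KLF2 and KLF4 induce, was lower than in Ly6Chigh monocytes in CCR2high (-3.59) and CCR2low macrophages (-3.38; adjusted p = 0.0366 and 0.0454).

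For each factor the genes whose log2 CPM was most alike over the 28 replicates were named by Pearson's r among the 8134 genes that averaged 10 CPM or more. These replicates share mice and libraries, and r is a description. The closest were Tor3a (0.95), P2rx4 and Gna15 for Irf8, Zbtb7a (0.93), Arhgap9 and Ypel3 for Spi1, and Gabarapl2 (0.90), Uqcrh and Rps14 for Cebpb. Pou2f2 was followed by Apbb1ip (0.88), Rasgrp2 and AI467606, Klf2 by Eif3f (0.87), A130071D04Rik and Rps27, and Klf4 by Ifitm6 (0.83), Rgs2 and Samsn1. The likeness was lower for Nr4a1 with Jarid2 (0.80), Gm8995 and Tiam2, for Cebpa with Mrps14 (0.78), Bbip1 and Qrsl1, and for Irf4 with Mbnl1 (0.78), Slc46a3 and Ptprc. Over the 22 brain replicates alone the gene nearest to Nr4a1 was Egr2 (r = 0.95), an immediate-early gene, which had r = -0.01 with it over all 28. Nearest to Klf2 in brain were the immunoglobulin light chain genes Iglc3 (0.85) and Iglc2 (0.85), and nearest to Irf8 were the MHC class I genes H2-K1 (0.92) and H2-D1 (0.92).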

How the data were processed

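The authors sorted the cells, amplified picogram amounts of RNA with SMARTer Ultra Low chemistry, added ERCC spike-ins and sequenced paired ends. They aligned with STAR to mm10, and marked and removed duplicates with Picard 1.8.4. The remaining reads were counted per gene with htseq-count (intersection-strict) on a Gencode annotation. The strand setting is not given in the sources used here. The deposited values are raw counts per gene and library. The 9 genes and all lists were chosen with earlier results of these data known.

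From these counts, spike-ins (0.284% to 13.3% of counts) and unassigned reads were left out. A library needed 6000 genes with 5 or more reads, which left out 1 library. Repeat libraries of a replicate were summed, which gave 28 replicates. All replicates entered 1 edgeR 4.0.16 quasi-likelihood fit (R 4.3.3, TMM, filterByExpr, 11566 genes), with p-values adjusted by Benjamini-Hochberg over those genes and called below 0.05. DESeq2 1.42.0, another scaling, other filters, other libraries and fits without each replicate were alternatives. Others were added after the data had been seen: leaving out both doubted replicates, and library sizes recomputed after the filter. The latter had been the setting of a first run and was replaced, after its results were seen, by totals over all genes. Under it 3 of the 33 calls were lost.

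Mouse numbers name the same animals, so they pair the samples. Deviations from the population means had a median correlation of 0.0746 (mouse 22), 0.0464 (23), 0.192 (24) and 0.473 (26) between populations of 1 mouse and -0.0303 between different mice. Named besides the 9 genes were at most 4 called genes per list and comparison, those with the largest log2 fold change, and the 3 genes most correlated with each factor; brain-only neighbours were named after their values were seen. The fit was tested on simulated data with known changes. Promoter motifs and the printed stretches were chosen with the results known.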

Additional observations from a re-analysis of the deposited data

Results flagged for a closer look

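In populations of 4 samples, gaps and ranges were taken on log2 CPM with a prior count of 2. A value was singled out where its gap to the nearest other, divided by the range, was above Dixon's 95% critical value for 4 samples. Of 36 such groups 4 had one, where chance gives about 1 in 20 if groups are independent. These groups share mice and are not independent, so that their count is no test of an excess. The ratios below are of log2 CPM, while levels are printed in CPM, on which the ratios would differ. Spi1 in CCR2high macrophages of mouse 26 was far below the other mice in both GFPneg cells (241 against 651 to 737 CPM, gap over range 0.89) and GFPpos cells (91.5 against 632 to 735 CPM, 0.928). Irf4 in GFPneg CCR2low macrophages was lowest in mouse 24 (3.70 against 11.1 to 12.7 CPM, 0.887). Cebpa in GFPneg CCR2high macrophages was also lowest in mouse 24 (4.41 against 5.95 to 6.31 CPM, 0.833).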

How the results depend on the processing

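Counts are of the 9 factors called. Of the 33 calls, 15 held in each fit that left out 1 replicate of the compared populations, 28 were lost with spike-in scaling, and 3 held under every alternative run. Spike-in scaling moved the median of all genes to -1.69 for Ly6Clow against Ly6Chigh monocytes and to 1.70, 1.87 and 1.74 for GFPneg glioma monocytes, CCR2high and CCR2low macrophages against Ly6Clow. It reversed Klf4 (-0.47) for Ly6Clow against Ly6Chigh, and Klf4 (0.41) and Cebpb (0.43) for GFPneg glioma monocytes against Ly6Clow; the cause was not tested. Over the 8 populations it left 1 of 7, and a minimum of 10 counts in every replicate (4379 genes and 5 factors tested) left 4; without 1 replicate 6 to 7 were called. Ly6Clow against Ly6Chigh (3) gave 0 with spike-in scaling and with only the compared populations, 1 with no filter (22327 genes tested), with the minimum of 10, with either library alone of GFPpos glioma monocytes mouse 22 and without both doubted replicates, and 0 to 4 without 1 replicate. Against Ly6Chigh, GFPneg glioma monocytes (2) gave 0 with spike-in scaling and with the first library alone, 1 with the minimum of 10, and 0 to 2 without 1 replicate. CCR2high GFPneg macrophages (2) gave 0 and 1 with spike-in scaling and the minimum of 10, and 0 to 2. CCR2low GFPneg macrophages (3) gave 0 with spike-in scaling, 1 with the minimum of 10 and the first library, and 0 to 3. GFPpos glioma monocytes (2) gave 1 with spike-in scaling, no filter and the first library, and 1 to 2. GFPpos CCR2high macrophages (2) gave 1 with spike-in scaling and the minimum of 10, and 1 to 4 (4 without their mouse 26). GFPpos CCR2low macrophages (4) gave 0 and 2 with those settings, and 3 to 4. Against Ly6Clow, GFPneg glioma monocytes (4) gave 1 with spike-in scaling, 0 with only the compared populations, 2 with no filter, the minimum of 10, the first library and without both doubted replicates, and 2 to 5. CCR2high GFPneg macrophages (5) gave 1 and 3 with spike-in scaling and the minimum of 10, and 5 without any 1 replicate. CCR2low GFPneg macrophages (6) gave 1 and 3 with those settings, 2 with only the compared populations, and 4 to 5.

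With the mouse as a replicate block, 1 factor (Nr4a1) was called in GFPneg CCR2high and CCR2low macrophages against GFPneg glioma monocytes and in GFPpos CCR2low macrophages against GFPpos glioma monocytes, where none was called without it. The other calls it changed stand in the report. GFPneg CCR2low macrophages against glioma monocytes also gave 2 with DESeq2, 1 with the minimum of 10, with only the compared populations and without both doubted replicates, and 0 to 1 without 1 replicate. The other comparisons within brain gave 0 throughout. Depth limits Cebpa, Irf4, Cebpb and Klf4, with counts under 10 in 8, 8, 4 and 2 of 22 brain replicates.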
